A study of Mus musculus with 4 samples.

Results

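Interferon-stimulated genes, the genes that cells switch on after interferons bind their receptors, were examined in livers of mice carrying SV40 oncoproteins. A list of 36 genes was followed, and a probe set (a group of short array probes reading 1 transcript) was a member when its only gene symbol in the platform annotation was on that list. This gave 40 of 12422 non-control probe sets, reading 31 of the 36 genes, among 8251 named genes on the array. Irf2, Stat2, Ifi203, Bst2 and Oasl2 were not analysed here. The genes were divided by role into 4 receptor genes, 8 transcription factor genes, 17 effectors of the type I response, 6 GTPase genes typical of interferon gamma, and Ifi30, which stood alone.

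Total liver RNA was profiled on Affymetrix MG_U74Av2 arrays, with 2 arrays for each genotype, wild type and PEPCK-TAg. All mice were males of the hybrid B6SJL background, 58 to 60 days old, and both groups had eaten freely for 4 weeks after weaning from a diet with 10% protein and 70% carbohydrate. In PEPCK-TAg mice the promoter of the phosphoenolpyruvate carboxykinase gene, which is active in hepatocytes, drives large T and small t, the oncoproteins of SV40, while wild-type mice lack the transgene. The series asks how long exposure to low amounts of these oncoproteins alters hepatic gene expression, and its design text calls the arrays duplicates. Nothing in the labels ties each array to an animal of its own or to pooled RNA, so every p-value rests on array-to-array spread that may be technical.

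Type I interferons (alpha and beta) bind the receptor made of IFNAR1 and IFNAR2, and interferon gamma binds the receptor made of IFNGR1 and IFNGR2. Both receptors act through JAK kinases and STAT proteins. Type I signalling assembles STAT proteins and IRF9 into a complex that binds the interferon-stimulated response element (ISRE), and interferon gamma signalling acts first at the gamma-activated site (GAS). The effectors restrict viral RNA and protein synthesis, while the guanylate-binding proteins and immunity-related GTPases act against microbes inside vacuoles. In liver these genes are used by hepatocytes as well as by resident macrophages and other immune cells.

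The promoter sequences of 7 members are shown because the genes they belong to differed in how they moved: Isg15, Ifit1, Ifit3, Gbp3 and Igtp were higher in PEPCK-TAg, and Irgm1 and Irf1 did not pass the threshold. Each is the 250 bases before a start of the gene, 5′ to 3′ on the gene's own strand, from RefSeq's GRCm38.p6 table. The table lists a second start for Gbp3 and for Irf1, whose windows held neither motif and are not shown. All 7 windows shown hold a match, and members without one, such as Irf7 and Ifi35, are not among them. The values themselves carry no genome build. Capitals mark the letters GAAANNGAAA (a core of the ISRE) or TTCNNNGAA (a core of the GAS) on either strand, and runs of capitals hold overlapping matches.
Isg15: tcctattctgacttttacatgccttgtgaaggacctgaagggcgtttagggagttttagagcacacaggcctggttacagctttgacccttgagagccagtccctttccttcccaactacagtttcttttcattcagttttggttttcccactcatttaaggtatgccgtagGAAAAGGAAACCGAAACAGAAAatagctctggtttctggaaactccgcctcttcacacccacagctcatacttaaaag
Ifit1: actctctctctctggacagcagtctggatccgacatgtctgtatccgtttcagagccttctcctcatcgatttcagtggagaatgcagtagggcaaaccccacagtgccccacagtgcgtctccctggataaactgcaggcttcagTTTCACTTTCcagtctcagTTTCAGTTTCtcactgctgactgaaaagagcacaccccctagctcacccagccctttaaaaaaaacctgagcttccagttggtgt
Ifit3: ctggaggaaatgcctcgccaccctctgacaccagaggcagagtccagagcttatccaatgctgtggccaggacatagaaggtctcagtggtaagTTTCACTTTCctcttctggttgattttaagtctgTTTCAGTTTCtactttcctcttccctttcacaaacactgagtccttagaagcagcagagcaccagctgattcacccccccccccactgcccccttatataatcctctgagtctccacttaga
Gbp3: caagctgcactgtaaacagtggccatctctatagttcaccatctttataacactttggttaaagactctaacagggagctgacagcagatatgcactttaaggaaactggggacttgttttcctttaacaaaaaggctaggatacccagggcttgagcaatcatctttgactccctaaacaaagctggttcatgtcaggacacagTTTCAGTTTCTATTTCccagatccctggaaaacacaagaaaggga
Igtp: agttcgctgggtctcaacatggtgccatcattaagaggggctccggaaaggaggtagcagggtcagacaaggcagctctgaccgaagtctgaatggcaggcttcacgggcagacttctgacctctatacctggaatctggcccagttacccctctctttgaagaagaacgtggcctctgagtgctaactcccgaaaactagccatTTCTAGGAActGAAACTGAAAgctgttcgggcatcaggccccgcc
Irgm1: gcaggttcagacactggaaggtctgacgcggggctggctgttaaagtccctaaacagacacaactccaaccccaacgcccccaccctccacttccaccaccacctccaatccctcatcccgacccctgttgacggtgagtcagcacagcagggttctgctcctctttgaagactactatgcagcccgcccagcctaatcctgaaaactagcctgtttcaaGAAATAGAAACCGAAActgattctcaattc
Irf1: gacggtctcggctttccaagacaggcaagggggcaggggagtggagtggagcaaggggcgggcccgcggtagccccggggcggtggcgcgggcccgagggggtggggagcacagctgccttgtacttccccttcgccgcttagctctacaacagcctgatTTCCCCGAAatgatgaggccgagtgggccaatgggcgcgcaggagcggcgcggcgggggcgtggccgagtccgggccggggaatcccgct

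These windows lie at chr4:156200819-156201068 on the minus strand for Isg15, and on the plus strand at chr19:34640639-34640888 for Ifit1 and chr19:34583279-34583528 for Ifit3. That of Gbp3 lies at chr3:142559794-142560043 (plus), that of Igtp at chr11:58199306-58199555 (plus), that of Irgm1 at chr11:48871421-48871670 (minus) and that of Irf1 at chr11:53769764-53770013 (plus). Isg15 held 3 overlapping ISRE matches beginning 78, 72 and 66 bases before its start, and Ifit1 held 2, at 104 and 85. In Ifit3 the 2 matches began at 156 and 122 bases, in Gbp3 at 45 and 39, and in Irgm1 at 30 and 24. Igtp held a GAS match at 45 bases followed by an ISRE match at 34, and Irf1 held a GAS match at 90 and no ISRE match. The RefSeq table listed 32 of the 36 genes, with 41 promoters. At least 1 ISRE match stood in 13 of these 41 promoters, where 2.98% of all 32851 promoters held one, and at least 1 GAS match in 8, where 7.02% of all held one. The matches did not follow the calls closely: among genes with a promoter entry, 6 of 14 higher genes and 3 of 11 tested genes without a call held an ISRE match, and Irf7, Ifi35, Trim25 and Adar held neither motif in this window. A match is a run of letters and not a shown binding site.

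The arrays of a group were alike, with r = 0.975 between the wild-type and 0.977 between the PEPCK-TAg arrays over log2 values of all non-control probe sets, which are not independent replicates. The 4 arrays shared chip lot, fluidics station and scan day, and each had its own fluidics module, so no batch can be separated from an array. Of the hepatocyte markers, Alb (serum albumin) measured between 12446 and 16723, while Hnf4a, a hepatocyte transcription factor gene, measured 112.7 and 123.8 in wild-type liver against 135.6 and 20.3 in PEPCK-TAg. Of 7453 probe sets tested, 477 were higher in PEPCK-TAg (6.40%) and 229 lower (3.07%) by limma with Benjamini-Hochberg adjusted p under 0.05. With the arrays centred on their medians, which moved the median difference by -0.14 in log2, the split was 403 higher and 409 lower.

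The interferon-stimulated genes were mostly higher in PEPCK-TAg liver. Of the 31 genes on the array, each read by its brightest probe set, 29 were bright enough to test, 16 rose, 0 fell and 13 did not pass the threshold, whereas 6.83% of all 5650 genes tested were higher and 3.01% lower. At an unadjusted p under 0.05 by limma, 13 of 13 tested type I effector genes and 5 of 6 GTPase genes were higher. So were 3 of 4 receptor genes and 3 of 6 transcription factor genes, and 0 were lower. Of all tested genes 16.6% were higher and 11.3% lower at that level. Of those 13 effectors, Ifit1, Ifit2, Mx1 and Trim30a passed the filter only through their PEPCK-TAg values, as did Ifngr2 among the 3 receptor genes. Over all 40 member probe sets, tested or not, the median log2 difference (PEPCK-TAg minus wild type, of log2(signal + 13)) was 0.87, with 0.01 over all 12422 probe sets. The PEPCK-TAg pair of arrays exceeded the wild-type pair without overlap in 29 of the 40, below them in 1, and overlapped with them in 10, while 26.5% of all probe sets had PEPCK-TAg above. The members were not alike: type I effectors had a median of 1.08 over 19 probe sets, receptors of 0.76 over 5, interferon gamma GTPases of 0.60 over 7 and transcription factors of 0.54 over 8, and differences between these medians were not tested. In whole liver RNA, more cells of a type and more RNA per cell cannot be told apart. The count of 16 became 9 when wild-type replicate 1 was left out, and 9 likewise for PEPCK-TAg replicate 2.

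**Figure D1:**
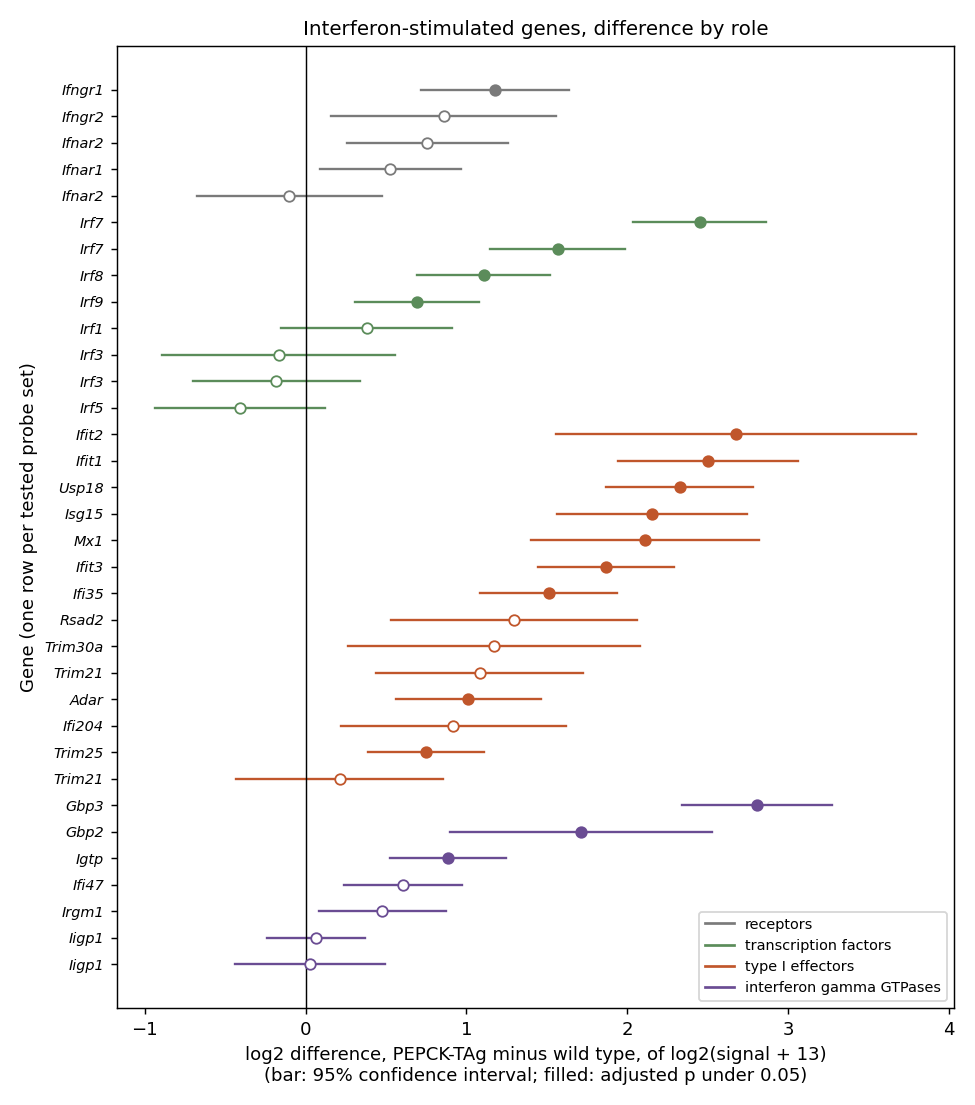
Log2 difference between PEPCK-TAg and wild type (x axis, log2(signal + 13)) for each tested member probe set (y axis, 34 in all), with its 95% confidence interval from limma, coloured by role; filled points passed the threshold. The filled points run from 0.69 (Irf9) to 2.81 (Gbp3), and both Iigp1 probe sets lie near 0.

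Among the receptor genes only Ifngr1, the ligand-binding chain for interferon gamma, passed the threshold. Its signal was 103.6 and 109.2 in wild-type liver against 228.9 and 288.5 in PEPCK-TAg, a log2 difference of 1.18 ± 0.19 (SE; limma, Benjamini-Hochberg adjusted p = 0.0157). The groups were well apart, yet leaving out wild-type replicate 1 ended its call (adjusted p = 0.0530), as did leaving out PEPCK-TAg replicate 2 (adjusted p = 0.0682). Ifngr2, the signalling chain of the same receptor, measured 35.4 and 58.8 in wild-type liver against 86.0 and 102.3 in PEPCK-TAg, with a difference of 0.86 and a 95% interval of 0.16 to 1.56 (limma, Benjamini-Hochberg adjusted p = 0.125). Its dimmer arrays were both wild type, but the difference did not pass.

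The type I receptor genes did not pass either. Ifnar1 measured 163.2 and 184.2 in wild-type liver against 278.8 and 234.4 in PEPCK-TAg, a difference of 0.53 (95% interval 0.09 to 0.96; limma, Benjamini-Hochberg adjusted p = 0.129). Ifnar2 was read by a pair of probe sets that disagreed. The brighter, whose sequence can be shared with other transcripts, gave 274.6 and 408.9 in wild-type liver against 274.4 and 353.7 in PEPCK-TAg, with overlapping groups and a difference of -0.10 (95% interval -0.68 to 0.47). The other gave 121.1 and 158.9 against 220.7 and 268.9, a difference of 0.76 (limma, Benjamini-Hochberg adjusted p = 0.0720). Its groups were apart, so the reading of Ifnar2 depends on the probe set.

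Of the 6 transcription factor genes on the array, Irf7, Irf8 and Irf9 rose and Irf1, Irf3 and Irf5 did not pass. Irf7, the factor that amplifies type I interferon production and is itself induced by it, moved most. Its brighter probe set measured 86.3 and 101.5 in wild-type liver against 555.5 and 583.5 in PEPCK-TAg, a 6.07-fold difference in mean signal (log2 difference 2.45 ± 0.17 SE; limma, Benjamini-Hochberg adjusted p = 0.00139). The other probe set, which can share sequence with related transcripts, gave 90.2 and 85.3 against 280.5 and 289.8, a difference of 1.57 ± 0.17 (limma, adjusted p = 0.00451). Both probe sets of Irf7 showed the rise, and the call of each was kept in every fit that left out 1 array.

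Irf8, a factor of macrophage and dendritic cell development that is induced by interferon gamma, measured 153.5 and 171.1 in wild-type liver against 342.8 and 385.9 in PEPCK-TAg, a difference of 1.11 ± 0.17 (SE; limma, Benjamini-Hochberg adjusted p = 0.0138). Leaving out wild-type replicate 1 (adjusted p = 0.0507) ended the call of Irf8, as did leaving out PEPCK-TAg replicate 2 (adjusted p = 0.05003). Irf9, the DNA-binding subunit of the complex that binds the ISRE, measured 433.3 and 504.3 against 760.3 and 766.3, a difference of 0.69 ± 0.16 (limma, Benjamini-Hochberg adjusted p = 0.0462). The groups were apart, but the call of Irf9 was lost without any 1 array (adjusted p between 0.0628, leaving out wild-type replicate 2, and 0.152, leaving out PEPCK-TAg replicate 2), with median centring (0.0963), with quantile normalization (0.0611), with no filter (0.0626) and without the mean-variance trend (0.0802).

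Irf1, a factor that drives many interferon gamma targets, measured 308.7 and 291.4 in wild-type liver against 322.0 and 481.1 in PEPCK-TAg (difference 0.38, 95% interval -0.15 to 0.91; limma, Benjamini-Hochberg adjusted p = 0.335). Only PEPCK-TAg replicate 2 stood clearly above wild type. Irf3, the constitutively made factor that starts interferon production after viral sensing, gave 111.4 and 93.5 against 83.0 and 94.4 (difference -0.18, 95% interval -0.70 to 0.34), and its other probe set differed by -0.17. Irf5, which acts below Toll-like receptors, measured 215.8 and 164.3 in wild-type liver against 121.7 and 157.9 in PEPCK-TAg (difference -0.41, 95% interval -0.94 to 0.12; limma, Benjamini-Hochberg adjusted p = 0.296). It was the 1 member probe set with both PEPCK-TAg arrays below both wild-type arrays, where 23.5% of all probe sets had that order.

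Of the 14 type I effector genes on the array, 9 rose, 4 were tested and did not pass, and Eif2ak2 was too dim to test. The family of Ifit genes, whose proteins bind foreign RNA and halt its translation, moved together. Ifit1 measured 21.3 and 26.1 in wild-type liver against 196.7 and 192.0 in PEPCK-TAg, a log2 difference of 2.50 ± 0.23 (SE; limma, Benjamini-Hochberg adjusted p = 0.00231). Ifit3, which stabilises Ifit1 in the complex they form, measured 84.7 and 76.5 against 337.8 and 318.1 (difference 1.87 ± 0.18, adjusted p = 0.00238). Ifit2 measured 4.1 and 33.0 in wild-type liver against 168.4 and 163.6 in PEPCK-TAg (difference 2.67 ± 0.47, adjusted p = 0.0194). The PEPCK-TAg arrays were nearly equal for each of the Ifit genes, and the wider error of Ifit2 came with its unequal wild-type values. The wild-type values of Ifit1 and Ifit2 were below the filter, so the size of their differences depends on the offset: from 2.02 (offset 32) to 2.99 (offset 1) for Ifit1 and from 2.03 to 3.67 for Ifit2. With no filter on dim probe sets, Ifit2 had an adjusted p of 0.0540.

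**Figure D2:**
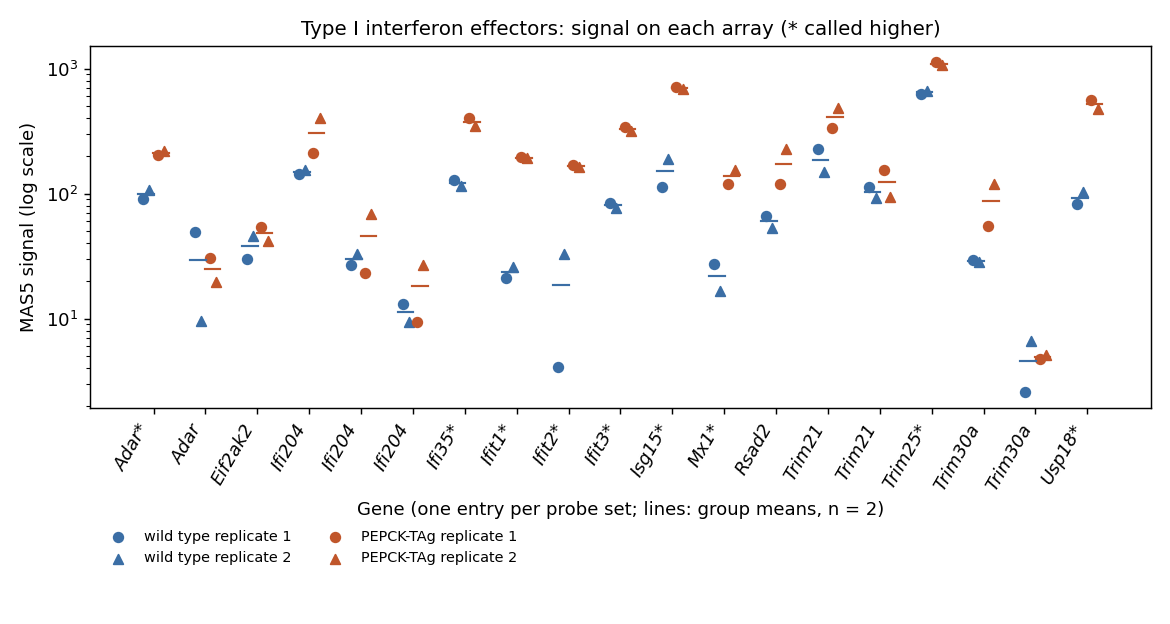
MAS5 signal (y axis, log scale) of every type I effector probe set on each array, with lines at the group means (n = 2); a star marks probe sets that passed the threshold, and heights are not comparable between probe sets. For Isg15, Usp18, Mx1 and the Ifit genes both PEPCK-TAg arrays lie far above wild type, whereas the entries without a star, such as Ifi204, Rsad2 and Trim30a, overlap or spread widely.

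Isg15 and its protease gene Usp18 rose as well. Isg15, a ubiquitin-like protein that is attached to other proteins after interferon exposure, measured 113.7 and 190.8 in wild-type liver against 713.2 and 689.4 in PEPCK-TAg, a difference of 2.15 ± 0.25 (SE; limma, Benjamini-Hochberg adjusted p = 0.00491). Usp18, which removes ISG15 from proteins and also restrains the type I receptor, measured 83.1 and 102.2 against 561.4 and 471.8 (difference 2.33 ± 0.19, adjusted p = 0.00179). Mx1, a dynamin-like GTPase active against influenza virus that is defective in many laboratory strains, measured 27.4 and 16.6 in wild-type liver against 120.1 and 154.8 in PEPCK-TAg (difference 2.11 ± 0.30, adjusted p = 0.00946). These genes, the Ifit genes and Ifi35 kept their calls in every fit that left out 1 array. Ifi35, a leucine zipper protein induced by interferon, measured 128.4 and 116.0 against 399.9 and 345.4 (difference 1.51 ± 0.18, adjusted p = 0.00531).

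Smaller rises were measured for Adar and Trim25. Adar, the enzyme that edits adenosine in double-stranded RNA, measured 90.4 and 107.0 in wild-type liver against 203.8 and 219.2 in PEPCK-TAg (difference 1.01 ± 0.19 SE; limma, Benjamini-Hochberg adjusted p = 0.0231). Its second probe set was below the filter and overlapped between groups, at 49.3 and 9.5 against 30.7 and 19.5. With no filter Adar was not called (adjusted p = 0.0613), nor when wild-type replicate 1 (0.0701) or either PEPCK-TAg array was left out (0.0685 for replicate 1, 0.0972 for replicate 2). Trim25, a ubiquitin ligase of the viral RNA sensing pathway, measured 621.6 and 665.9 against 1118.9 and 1060.4 (difference 0.75 ± 0.15, adjusted p = 0.0291). Although the arrays of each group were close, the call of Trim25 was lost without any 1 array (adjusted p between 0.0614, leaving out wild-type replicate 2, and 0.114, leaving out PEPCK-TAg replicate 1), with median centring (0.0646) and without the mean-variance trend (0.0606).

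The 4 tested effectors that did not pass were unequal between the PEPCK-TAg arrays. Rsad2, which encodes the antiviral enzyme viperin, measured 66.7 and 53.0 in wild-type liver against 119.0 and 227.3 in PEPCK-TAg (difference 1.296 ± 0.32 SE; limma, Benjamini-Hochberg adjusted p = 0.0542). Trim21, a cytosolic antibody receptor and ubiquitin ligase, measured 226.5 and 147.9 against 332.2 and 486.5 (difference 1.08, adjusted p = 0.0554), while its other probe set gave 112.6 and 93 against 154.0 and 94.0, with overlap. Ifi204, a DNA-binding protein whose family members are alike in sequence, measured 143.9 and 153.3 against 212.3 and 401.2 (difference 0.92, adjusted p = 0.107). In the Rsad2 and Ifi204 probe sets and the brighter of Trim21 the higher PEPCK-TAg value was that of replicate 2, and in the dimmer of Trim21 that of replicate 1. Leaving out PEPCK-TAg replicate 1 gave adjusted p of 0.0149 for Rsad2, 0.0282 for the brighter Trim21 and 0.0159 for Ifi204, but such a fit drops the lower of an unequal pair, takes its spread from wild type alone and assumes that the lone array varies alike, so it gives no support to a call. Trim30a, another interferon-induced ligase gene, measured 29.4 and 28.5 against 54.9 and 118.5 (difference 1.17, adjusted p = 0.110), and its second probe set, at 2.6 and 6.6 against 4.8 and 5.1, was dim. Eif2ak2, which encodes the kinase PKR that shuts off translation, measured 30.0 and 45.9 in wild-type liver against 54.1 and 42.1 in PEPCK-TAg, with overlapping groups and below the filter.

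Some effectors entered the test through PEPCK-TAg alone. Ifit1, Ifit2, Mx1 and Trim30a, and among the receptors Ifngr2, made 5 tested member probe sets whose wild-type mean was below the filter, and 3 of them (Ifit1, Ifit2 and Mx1) were called. With no filter, 12 member genes were higher instead of 16: Ifit2, Gbp2, Irf9 and Adar lost their calls, and Ifit1 (adjusted p = 0.0133) and Mx1 (0.0316) kept theirs. With the filter at the 60th percentile, which left Ifit1, Ifit2 and Mx1 untested, 13 member genes and 6 type I effectors were higher.

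Of the 6 GTPase genes typical of interferon gamma, Gbp2, Gbp3 and Igtp rose, and Ifi47, Irgm1 and Iigp1 did not pass. Gbp3, a guanylate-binding protein gene, had the largest difference of all members on the log2(signal + 13) scale, although with an offset of 1 Ifit2 (3.67) and Ifit1 (2.99) exceeded its 2.89. It measured 150.7 and 206.6 in wild-type liver against 1271.1 and 1357.1 in PEPCK-TAg, 7.36-fold in mean signal (log2 difference 2.81 ± 0.19 SE; limma, Benjamini-Hochberg adjusted p = 0.00139). Its call was kept in every fit that left out 1 array. Gbp2, of the same family, measured 64.4 and 83.7 against 186.7 and 388.1 (difference 1.71 ± 0.34, adjusted p = 0.0280). Its PEPCK-TAg values differed by 1.01 in log2, and the call ended when either wild-type array was left out (adjusted p = 0.0988 for replicate 1, 0.0558 for replicate 2), when PEPCK-TAg replicate 2 was (0.0602), and with no filter (0.0732).

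Of the immunity-related GTPases, 1 gene, Igtp, passed the threshold. Igtp (also called Irgm3), which guards lipid droplets and endoplasmic reticulum from the effector GTPases, measured 532.5 and 562.2 in wild-type liver against 996.9 and 1046.8 in PEPCK-TAg (difference 0.89 ± 0.15 SE; limma, Benjamini-Hochberg adjusted p = 0.0182). Leaving out wild-type replicate 1 (adjusted p = 0.0623) ended the call of Igtp, and so did leaving out PEPCK-TAg replicate 2 (0.0659). Irgm1, a regulatory member of the same family, measured 343.1 and 298.0 against 445.1 and 455.3 (difference 0.48, 95% interval 0.08 to 0.87; adjusted p = 0.130). Ifi47 (also Irgd) measured 519.7 and 490.3 against 796.4 and 752.5 (difference 0.60, 95% interval 0.24 to 0.97; adjusted p = 0.0588). The groups were apart for Irgm1 and Ifi47, yet neither passed after adjustment over all probe sets.

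Iigp1, the effector GTPase that is loaded onto the vacuole of Toxoplasma, gave the smallest difference among the GTPases. Its brighter probe set measured 3693.3 and 3858.5 in wild-type liver against 3974.3 and 3921.5 in PEPCK-TAg, a difference of 0.06 with a 95% interval of -0.24 to 0.37 (limma, Benjamini-Hochberg adjusted p = 0.801). The other probe set, which can share sequence with related transcripts, measured 2294.6 and 2630.5 against 2960.8 and 2117.0 (difference 0.03, 95% interval -0.44 to 0.49). These small differences moved with the scaling: they were -0.08 and -0.12 with median centring, 0.295 and 0.195 with quantile normalization and 0.284 and 0.195 with cyclic loess, with no call in any of them. The intervals of Iigp1 lie below that of Gbp3 (2.34 to 3.27), although the difference between the genes was not itself tested. The count of 3 higher GTPase genes fell to 1 when wild-type replicate 1 was left out, to 2 for wild-type replicate 2 and to 1 for PEPCK-TAg replicate 2, while the 9 type I effector genes numbered 7 to 10 without any 1 array.

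**Figure D3:**
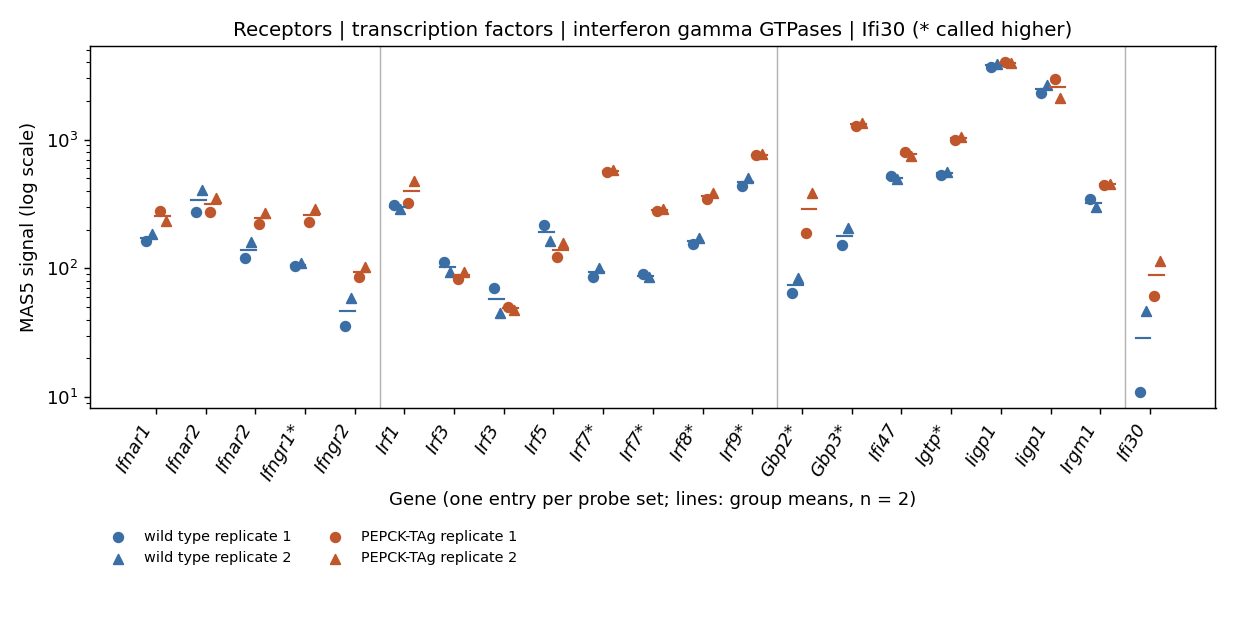
MAS5 signal (y axis, log scale) on each array for the receptor, transcription factor and interferon gamma GTPase probe sets and for Ifi30, with lines at the group means (n = 2); a star marks probe sets that passed the threshold, and heights are not comparable between probe sets. Gbp3 and the brighter Irf7 probe set show the widest gaps, and the 4 arrays nearly coincide for the brighter Iigp1 probe set.

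Ifi30, which encodes a lysosomal thiol reductase of antigen processing induced by interferon gamma, measured 11 and 47.0 in wild-type liver against 61.3 and 115.0 in PEPCK-TAg. It was below the filter and was not tested. Both PEPCK-TAg arrays were the higher ones, with group means 1.36 apart in log2.

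Members also varied between the PEPCK-TAg arrays. In 9 of the 40 probe sets (22.5%) replicate 2 exceeded replicate 1 by more than 0.5 in log2, against 9.81% of all probe sets. In 1 member probe set the order was the reverse, as in 1075 of all 12422. Every probe set of the gene Ifi204 was among the 9, with gaps of 0.88 (tested), 1.16 and 0.83 (both below the filter). The largest of these gaps outside Ifi204 were 1.01 for Gbp2, 0.95 for Trim30a, 0.86 for Rsad2 and 0.79 for Ifi30, with 0.56 for Irf1. Others were nearly equal on both arrays: the gap was 0.07 for the brighter Irf7 probe set, -0.03 for Ifit1, -0.05 for Isg15 and 0.09 for Gbp3. This is a description of a pair of arrays and was not tested.

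Other genes of the interferon pathway were read from lists in which members do not appear. None of the interferon genes themselves passed: of 9 on the array 2 were bright enough to test and 0 were called (limma; 0 also at an unadjusted p under 0.05). Their median difference was 0.19 over 10 probe sets. Ifnb1 measured 21.0 and 25.0 in wild-type liver against 3.5 and 12.4 in PEPCK-TAg, and Ifng measured 3.5 and 5.5 against 3.5 and 2.6, all dim. Of 12 receptor signalling genes on the array 10 were tested and 1, the phosphatase gene Ptpn1, rose, where 6.83% of all genes tested were higher. The difference of Ptpn1 was 0.79 ± 0.19 in log2 (SE; limma, Benjamini-Hochberg adjusted p = 0.0463), a call that ended when wild-type replicate 1 or either PEPCK-TAg array was left out.

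The kinase and inhibitor genes of that list did not pass. Jak1 measured 670.5 and 685.3 against 829.0 and 982.1 (difference 0.41; limma, Benjamini-Hochberg adjusted p = 0.173), Jak2 differed by 0.15 (adjusted p = 0.660) and Tyk2 by -0.57 (adjusted p = 0.498). Of the feedback inhibitors, Socs3 measured 61.4 and 119.2 in wild-type liver against 207.1 and 174.2 in PEPCK-TAg (adjusted p = 0.0829), and Socs1, below the filter, measured 27.9 and 18.7 against 78.7 and 56.2. Both inhibitors had PEPCK-TAg arrays above wild type without a call. Of 7 nucleic acid sensing genes on the array 5 were tested and 1 was called higher, where 6.83% of all genes tested were higher. This was Ifih1, which encodes the RNA sensor MDA5 and rose from 392.1 and 322.5 to 892.9 and 787.4 (difference 1.21 ± 0.18; limma, adjusted p = 0.0109).

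A list of 59 further interferon-stimulated genes had 32 on the array, of which 25 were tested, 10 rose and 0 fell. Of all genes tested 6.83% were higher and 3.01% lower. The median difference of the list was 0.67 over 38 probe sets. Ifi27, an interferon-induced mitochondrial protein gene, rose from 1151.9 and 719.2 to 5141.7 and 4520.3 (difference 2.39 ± 0.23 SE; limma, Benjamini-Hochberg adjusted p = 0.00270). Cxcl10, a chemokine gene induced by both kinds of interferon, rose from 8.8 and 6.2 to 112.6 and 304.4 (difference 3.29 ± 0.46, adjusted p = 0.00933), though its wild-type values were below the filter and it was tested only through PEPCK-TAg. Gbp7 rose from 202.6 and 229.1 to 647.9 and 506.0 (difference 1.36 ± 0.19, adjusted p = 0.00933). The others were Cxcl9, Cmpk2 (also below the filter in wild type), Slfn4, Lgals3bp, Ly6e, Ifih1 and Ifrd1. Ifih1 is the sensing gene already counted above, and Ifrd1 is related to interferons by name only. Irgm2, the remaining regulatory GTPase of the Irgm1 and Igtp group, measured 712.2 and 764.9 against 1088.5 and 1119.8 and did not pass (difference 0.57, adjusted p = 0.0625). Without 1 array the calls of Cxcl9, Cmpk2, Lgals3bp and Ly6e were lost, with adjusted p up to 0.0970, 0.109, 0.0887 and 0.112, the first without wild-type replicate 1 and the others without PEPCK-TAg replicate 1.

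**Figure D4:**
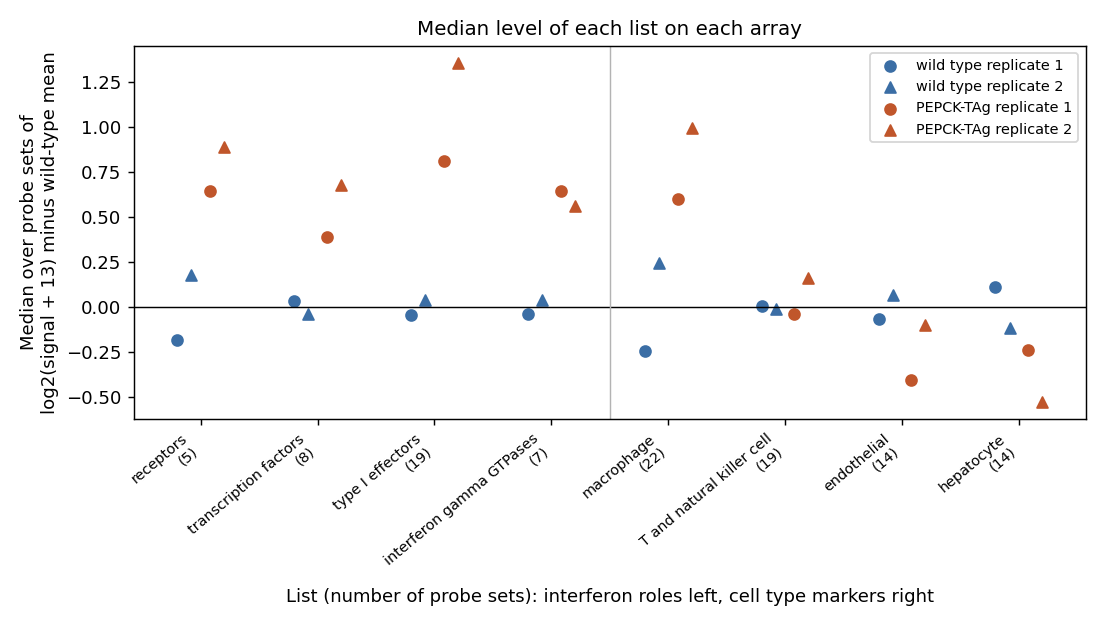
Median over the probe sets of each list (y axis, log2(signal + 13) minus that probe set's wild-type mean) on each of the 4 arrays, for the interferon roles on the left and cell type markers on the right, with the number of probe sets in brackets. The median of the macrophage markers is also higher on both PEPCK-TAg arrays (0.605 and 0.995). On the wild-type arrays it is -0.25 and 0.25, with -0.18 and 0.18 for the receptors and -0.04 and 0.04 for the effectors and for the GTPases.

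By their median, macrophage markers moved in the same direction as the members. Of 15 on the array 14 were tested, of which 6 rose (Mpeg1, Cd14, Cd5l, Clec4f, C1qb and Fcgr1) and 8 did not pass. Of all genes tested 6.83% were higher. The median was 0.82 over 22 probe sets. Of these, 11 had PEPCK-TAg above (26.5% of all probe sets did), 1 below (23.5% of all did) and 10 overlapped. Adgre1, Marco, Aif1, the brighter Csf1r and the dimmer C1qb probe sets were among those that overlapped. The dimmer Csf1r was the 1 below (difference -0.93). The summed signal of the macrophage markers, 1 probe set per gene, was 3637 and 6571 in wild-type liver against 11726 and 15445 in PEPCK-TAg. The part of macrophages in the interferon result was not tested. The median gap between the wild-type arrays was 0.49 in log2 for macrophage markers and 0.09 for the members. The Clec4f, C1qb and Fcgr1 calls ended when wild-type replicate 1 was left out (adjusted p = 0.101, 0.0572 and 0.0989) or PEPCK-TAg replicate 2 was (0.0713, 0.0510 and 0.108), and Fcgr1 was also not called when PEPCK-TAg replicate 1 was left out (0.0881).

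T and natural killer cells, the main makers of interferon gamma, left little signal. Of 16 of their markers on the array 2 were bright enough to test and 0 were called by limma (0 also at an unadjusted p under 0.05), with a summed signal of 402.8 and 336.5 in wild-type liver against 348.4 and 384.2 in PEPCK-TAg. The T cell receptor gene Cd3e measured 19.1 and 20.5 against 19.7 and 21.3, and Cd3g 38.1 and 5.6 against 18.9 and 4.3. Of the 19 probe sets of this list, 3 had PEPCK-TAg above wild type (Cd8b1, Cd5 and Thy1). In 1 (Prf1) the order was the reverse, and 15 overlapped, while 26.5% of all probe sets had PEPCK-TAg above and 23.5% below. All of these named genes were below the filter. Endothelial markers had a median of -0.26 and 0 of 9 tested genes called by limma (3 lower at an unadjusted p under 0.05), and hepatocyte markers a median of -0.38 with 1 of 12 lower, Apoa2 (difference -0.74, adjusted p = 0.0166; 5 lower and 0 higher at an unadjusted p under 0.05), a call that ended when any array but wild-type replicate 2 was left out (up to 0.0779). Among all 5650 genes tested, limma called 6.83% higher and 3.01% lower after adjustment. At an unadjusted p under 0.05 these shares were 16.6% and 11.3%. Of the macrophage, T and natural killer, endothelial and hepatocyte lists, the macrophage list had medians on both PEPCK-TAg arrays above those on both wild-type arrays. Single macrophage markers differed in this, and any link between these lists and the members was not tested.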

How the data were processed

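The deposited table holds linear MAS5 signal intensity for every probe set on the 4 arrays, MAS5 being named in the submitters' processing notes. Its version and scaling target are not stated there. Each array's mean signal without the lowest and highest 2% was 250.2, so the authors had scaled the arrays, and the intensities were not normalized further. Symbols came from the platform annotation: of 12422 non-control probe sets (66 controls left out), 10833 had 1 symbol, 396 several and 1193 none. Entrez identifiers of all 40 member probe sets matched RefSeq.

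Tests used log2(signal + 13), an offset equal to 5% of that trimmed mean that understates changes of dim genes. Probe sets from the 40th percentile of mean log2 value upward were kept (a signal near 48.1), leaving 7453 probe sets. The groups were compared two-sided in R 4.3.3 by limma 3.58.1 (lmFit, then eBayes with trend; 2 residual and 4.61 prior degrees of freedom), Benjamini-Hochberg adjusted over all tested probe sets. An exact permutation test of 2 against 2 arrays cannot go below p = 0.333, and was left out. Precision is limited by having 2 arrays a group. A gene was read by its probe set of highest mean. The fit was tested on simulated data. Every member was named. From other lists, genes past the threshold and up to 4 of smallest p could be named, and Jak1, Jak2, Tyk2, Socs1, Socs3, Ifnb1 and Ifng always; another gene of that rule is not reported here. Alb, Cd3e, Cd3g, Irgm2, Adgre1, Marco, Aif1, Csf1r, Cd8b1, Cd5, Thy1 and Prf1 were added after their values were seen. Members and lists were chosen with earlier results of these data known. Other offsets, filters, normalizations, variance prior, a replicate block and leaving out each array were tried.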

Additional observations from a re-analysis of the deposited data

How the results depend on the processing

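Offsets of 1 and 32 and cyclic loess left every member probe set on its side of the threshold. The count of all lower probe sets, 229, was 105 with no filter, 409 with median centring, 117 without the mean-variance trend and 444 with the replicate number as a block, and the cause was not tested. Without 1 array, higher probe sets numbered 294 to 401, lower ones 94 to 147, higher member genes 9 to 16, type I effectors 7 to 10 and GTPase genes 1 to 3. Equal replicate numbers share only a number. Over the 7453 tested probe sets, deviations from the group mean correlated with r = 0.181 between wild-type replicate 1 and PEPCK-TAg replicate 1. With 2 arrays a group, the replicate 2 arrays give the same value and add nothing. With the replicate block 20 member genes and 12 type I effectors were higher, and Ifi47 (adjusted p = 0.0450), the Ifnar2 probe set with the larger difference (0.0307), Ifi204 (0.0354), Rsad2 (0.0273) and Trim21 (0.0336) gained calls (limma). Quantile normalization gave 15 member genes, and the mean over each gene's probe sets 15. Differences near 0, none of them called, changed sign. With median centring the brighter and dimmer Iigp1 probe sets gave -0.080 and -0.117, against 0.295 and 0.195 with quantile normalization. Across fits leaving out 1 array, the dimmer Iigp1 probe set ranged from -0.214 to 0.268 (-0.071 without wild-type replicate 1), the brighter Ifnar2 from -0.378 to 0.175 (0.074 in the absence of PEPCK-TAg replicate 1), the dimmer Irf3 from -0.425 to 0.089 and the dimmer Trim21 from -0.109 to 0.533. Signal over background limits Eif2ak2, Ifi30 and most interferon genes, which were below the filter and had no test.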

Other observations

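Among markers of other immune cells, Cd83, an activation marker of dendritic cells, rose from 11.7 and 26.3 in wild-type liver to 112.3 and 221.2 in PEPCK-TAg (log2 difference 2.46 ± 0.40 SE; limma, Benjamini-Hochberg adjusted p = 0.0154), which was lost without PEPCK-TAg replicate 2 (0.0542); its wild-type values were below the filter. A dimmer Cd83 probe set, which was below the filter and not tested, overlapped between groups, at 29.0 and 12.6 against 10.8 and 24.1. The other dendritic cell markers tested did not pass: Itgax differed by 0.31, Xcr1 by -0.48 and the brighter Flt3 probe set by -0.22. Jchain, the joining chain of secreted antibodies, measured 60.5 and 55.7 in wild-type liver against 93.9 and 289.2 in PEPCK-TAg (limma, adjusted p = 0.126). For the B cell gene Ms4a1, the brighter probe set measured 184.1 and 176.8 against 96.8 and 121.4 (limma, adjusted p = 0.0849). A dimmer Ms4a1 probe set, which was not tested, went the opposite way without overlap, at 19.3 and 16.9 against 42.3 and 58.4. Ms4a1 therefore showed no single direction.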
